A study of Mus musculus with 12 samples.

Results

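Thymic expression of 5 lens crystallin genes and 4 retinal genes was described in medullary thymic epithelial cells (mTECs). The lens genes were Cryaa, Cryba1, Crybb1, Crybb3 and Crygs, and the retinal genes were Rpe65, Rbp3, Sag and Rlbp1. Each gene was represented by the probe set that carried its symbol alone, and by the brighter probe set where there were several. All 9 were measured, out of 22154 genes on the array. RNA from sorted cells had been hybridised to 12 single-colour Affymetrix mouse gene arrays, 1 per sample. The thymi came from C57BL/6 mice at 4 weeks of age. Stromal cells that excluded DAPI and lacked CD45 were gated on Epcam, on UEA binding and on low Ly51, then divided by MHC class II into a high fraction (mTEChi) and a low fraction (mTEClo). In mTEChi there were 2 arrays each of Aire-/-, Aire+/+, Brg1-/- and Brg1+/+ cells, numbered 1 and 2. In mTEClo there was 1 array each of the same 4 genotypes, numbered 1. Brg1, encoded by Smarca4, is the motor subunit of SWI/SNF complexes, which move nucleosomes. The labels name no promoter, Cre line or deleted exon for either knockout, and do not say whether replicates came from separate animals. The p-values therefore reflect variation among these arrays, which could be purely technical.

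Medullary thymic epithelial cells transcribe many genes that are otherwise restricted to peripheral organs and present their products to developing T cells. The nuclear protein Aire drives a large share of this transcription, most of all in mature cells with high MHC class II. The eye is a known target of autoimmunity when thymic tolerance fails: mice without Aire can develop autoimmune eye disease, and Rbp3 and Sag are standard antigens for inducing experimental uveitis. Alpha-crystallins are small heat shock chaperones of the lens, while beta- and gamma-crystallins are its refractive structural proteins and share a common fold.

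Arrays were compared on the log2 intensity scale, where a step of 1 is a doubling. Array medians lay between 5.07 and 5.32, and the number of arrays limits the precision. No detection call was used, so the reading at which a gene lies above background is not known. Epcam, the marker of the sort, read 8.69 and 8.41 in Aire-/- mTEChi, against 9.23 and 8.52 in Aire+/+ mTEChi, and 11 of 12 listed medullary markers were measured. The Aire probe set read 9.01 and 9.73 on the arrays labelled Aire-/- mTEChi, against 8.04 and 8.80 in Aire+/+ mTEChi. Smarca4 read 5.88 and 5.44 in Brg1-/- mTEChi, against 6.13 and 6.89 in Brg1+/+ mTEChi. Neither difference passed the test, and the place of either probe set relative to the deletion is not known here, so these readings do not check the genotypes. Arrays numbered 1 and 2 differed from each other in a way common to the genotypes: 32.1% of genes read lower on number 2 than on number 1 in each of the 4 mTEChi groups. Differences between arrays of the same number are therefore given beside the main results.

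The promoter windows of Cryba1, Crygs, Crybb1 and Rpe65 are shown because these 4 genes were higher in wild-type mTEChi than in mTEClo, as described below, and 3 of them fell without Aire. Each window runs from 250 bases before to 50 bases after the annotated transcription start in RefSeq (GRCm38.p6) and is written 5′ to 3′ on the gene's strand. All 9 genes matched an entry. Capitals mark 3 motifs searched on both strands: TATAAA, the core of a TATA box; TGCTGA, a Maf-binding sequence as found in lens crystallin promoters; and TAATCC, a sequence bound by Otx and Crx homeodomain factors of the retina. No motif matches overlapped in these windows.
Cryba1, chr11:77725244-77725543, minus strand: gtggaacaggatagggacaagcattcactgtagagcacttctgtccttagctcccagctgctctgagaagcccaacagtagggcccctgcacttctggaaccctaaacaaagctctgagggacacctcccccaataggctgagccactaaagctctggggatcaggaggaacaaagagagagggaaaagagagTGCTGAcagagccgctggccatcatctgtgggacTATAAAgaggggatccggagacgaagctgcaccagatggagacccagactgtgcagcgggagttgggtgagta
Crygs, chr16:22811361-22811660, minus strand: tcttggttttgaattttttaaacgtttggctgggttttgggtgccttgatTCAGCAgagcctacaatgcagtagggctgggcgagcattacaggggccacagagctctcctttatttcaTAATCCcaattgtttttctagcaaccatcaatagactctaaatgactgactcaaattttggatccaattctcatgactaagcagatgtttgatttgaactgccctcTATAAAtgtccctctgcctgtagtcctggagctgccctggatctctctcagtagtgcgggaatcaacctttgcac
Crybb1, chr5:112255570-112255869, plus strand: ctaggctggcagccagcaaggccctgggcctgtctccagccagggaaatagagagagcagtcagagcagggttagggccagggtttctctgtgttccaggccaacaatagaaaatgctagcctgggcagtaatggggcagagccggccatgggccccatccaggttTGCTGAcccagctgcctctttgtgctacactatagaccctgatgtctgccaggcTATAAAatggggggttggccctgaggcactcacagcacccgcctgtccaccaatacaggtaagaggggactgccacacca
Rpe65, chr3:159598931-159599230, plus strand: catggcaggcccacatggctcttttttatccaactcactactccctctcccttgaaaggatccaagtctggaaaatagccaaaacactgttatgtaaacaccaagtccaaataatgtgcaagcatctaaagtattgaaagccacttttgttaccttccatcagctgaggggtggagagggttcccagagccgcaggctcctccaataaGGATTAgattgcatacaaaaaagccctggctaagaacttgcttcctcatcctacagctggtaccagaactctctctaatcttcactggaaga

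TATAAA on the gene's own strand began 23 bases before the start in Cryba1, 25 in Crygs and 30 in Crybb1. These were 3 of the 9 genes with that sequence beginning between 35 and 20 bases before the start, a range chosen after the matches were seen, and 1.84% of 32851 promoter windows had it there. The Rpe65 window held no TATAAA on either strand. Counting both strands and the whole window, TATAAA was in 5 of the 9 windows (13.6% of all promoter windows), TGCTGA in 8 of 9 (19.5%) and TAATCC in 4 of 9 (7.06%). TGCTGA was in all 5 lens windows and also in those of Rbp3, Sag and Rlbp1, while TAATCC was in the windows of Crygs, Rpe65, Rbp3 and Sag. A match describes the sequence and is not a binding site shown by these data.

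The first comparison asked whether these eye genes in mTEChi depended on Aire. Cryba1, Crygs and Rpe65 fell in the arrays labelled Aire-/-, and no gene of the 9 rose. Cryba1, which encodes a beta-crystallin of the lens, read 5.17 and 4.42 in Aire-/- mTEChi, against 8.62 and 8.94 in Aire+/+ mTEChi. The groups lay over 3 units apart and did not overlap, and the difference was -3.98 (SE 0.49, n = 2 and 2, limma adjusted p = 0.0151), 15.8-fold lower as measured. Crygs, the gamma-crystallin of the adult lens, read 4.31 and 4.72 in Aire-/- mTEChi, against 7.79 and 8.36 in Aire+/+ mTEChi. Its difference was -3.56 (SE 0.369, limma adjusted p = 0.00708), 11.8-fold lower as measured. Rpe65, the retinoid isomerase of the retinal pigment epithelium, read 3.22 and 3.86 in Aire-/- mTEChi, against 5.70 and 5.56 in Aire+/+ mTEChi, without overlap. Its difference was -2.09 (SE 0.337, limma adjusted p = 0.0468), 4.26-fold lower. The Aire-/- readings of these genes lay near or below the array medians, so the sizes depend on how dim values are treated. With 16 added to the intensities Cryba1 was 10.3-fold lower (-3.37, limma adjusted p = 0.0383) and Crygs 7.36-fold lower (-2.88, limma adjusted p = 0.0218). In bulk samples, fewer cells that transcribe a gene and less RNA per cell cannot be told apart.

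The other crystallins of the 9 had smaller differences, and none passed the test. Cryaa, the lens chaperone alpha-A-crystallin, read 5.96 on each Aire-/- array, against 6.80 and 7.54 in Aire+/+ mTEChi. The groups did not overlap, with a difference of -1.21 (95% interval -2.07 to -0.35, limma adjusted p = 0.452). A second Cryaa probe set had a difference of -1.70 in the same direction, from 5.61 and 5.23 in Aire-/- mTEChi, against 7.75 and 6.49 in Aire+/+ mTEChi. Crybb1, a beta-crystallin, read 7.28 and 7.80 in Aire-/- mTEChi, against 8.41 and 8.25 in Aire+/+ mTEChi, and differed by -0.79 (95% interval -1.41 to -0.17, limma adjusted p = 0.561). Crybb3, another beta-crystallin, read 7.54 and 7.26 in Aire-/- mTEChi, against 7.30 and 7.16 in Aire+/+ mTEChi. Its arrays overlapped between the genotypes, and the interval of its difference ran from -0.40 to 0.74.

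The 3 retinal genes besides Rpe65 did not pass the test either, and none differed by more than 1 unit. Rbp3, the retinoid carrier between photoreceptors and pigment epithelium, read 4.96 and 4.22 in Aire-/- mTEChi, against 4.80 and 3.86 in Aire+/+ mTEChi. The difference was 0.26 with a 95% interval of -0.89 to 1.41. With background unknown, a probe set this dim may not be able to show a fall of several units. Sag, the arrestin that quenches rhodopsin signalling, read 4.52 and 4.42 in Aire-/- mTEChi, against 5.11 and 4.69 in Aire+/+ mTEChi, a difference of -0.43 (95% interval -1.04 to 0.18). Rlbp1, the retinaldehyde-binding protein of pigment epithelium and Müller glia, read 5.20 and 5.18 in Aire-/- mTEChi, against 4.87 and 5.16 in Aire+/+ mTEChi. Its groups lay 0.02 apart at their nearest arrays, with a difference of 0.17 (95% interval -0.83 to 1.18).

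Over the 9 genes 3 fell, against 0.772% of the 22154 genes called lower and 0.0226% called higher in this comparison. The median difference of the 9 was -0.79, against 0.06 over all genes. The 9 were chosen with earlier results of these data known, so these shares do not test them as a set. In 6 of the 9, both Aire-/- arrays lay below both Aire+/+ arrays, which held for 11.6% of all genes, and in 1, Rlbp1, both lay above, as in 15.9% of all genes. Between arrays of the same number the Cryba1 difference was -3.45 for number 1 and -4.52 for number 2. That of Crygs was -3.48 and -3.64, and that of Rpe65 was -2.48 and -1.70. These calls depended on single arrays. With Aire+/+ mTEChi replicate 1 left out, the adjusted p was 0.0929 for Cryba1 (-4.14), 0.0379 for Crygs (-3.85) and 0.27 for Rpe65 (-2.02). Without Aire+/+ replicate 2 none of the 3 passed, with adjusted p of 0.113, 0.0646 and 0.229. Without Aire-/- replicate 1 none passed, with adjusted p of 0.0623, 0.0671 and 0.302, and without Aire-/- replicate 2 Crygs alone passed (0.0441). The Rpe65 call was also lost without any single Brg1 mTEChi array (adjusted p from 0.0563 to 0.0723), with arrays centred on their medians (0.0508), with quantile normalization (0.0687), with 16 added to the intensities (0.0829, difference -1.24) and with an intensity trend (0.0532).

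Markers of other cells were read beside this comparison. The summed intensity of 11 fibroblast and endothelial markers was 1676 to 1722 in Aire-/- mTEChi, against 1021 to 1111 in Aire+/+ mTEChi, and 0 of the 11 passed the test. For 11 thymocyte markers it was 554 to 1053 in Aire-/- mTEChi, against 560 to 1342 in Aire+/+ mTEChi, and for 7 cortical epithelial markers 1049 to 1073, against 972 to 1048. For 10 markers of dendritic cells, macrophages and B cells it was 1100 to 1876 in Aire-/- mTEChi, against 1342 to 1736 in Aire+/+ mTEChi. Within the fibroblast and endothelial list, Lum read 6.71 and 6.86 in Aire-/- mTEChi, against 4.91 and 5.89 in Aire+/+ mTEChi (difference 1.39, limma adjusted p = 0.532). Dcn, also of fibroblasts, read 10.23 and 10.24 in Aire-/- mTEChi, against 9.49 and 9.22 in Aire+/+ mTEChi (difference 0.88, limma adjusted p = 0.319). Both were named after their values were seen, and for both the groups did not overlap. Dcn was the brightest of the 11, and the median log2 difference of the 11 was 0.08. A summed intensity mainly follows the brightest probe sets of its list, here and in the comparisons below. No marker of these lists passed, no intensity is 0 on this scale, and the part of such cells in the eye gene differences was not tested.

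**Figure D1:**
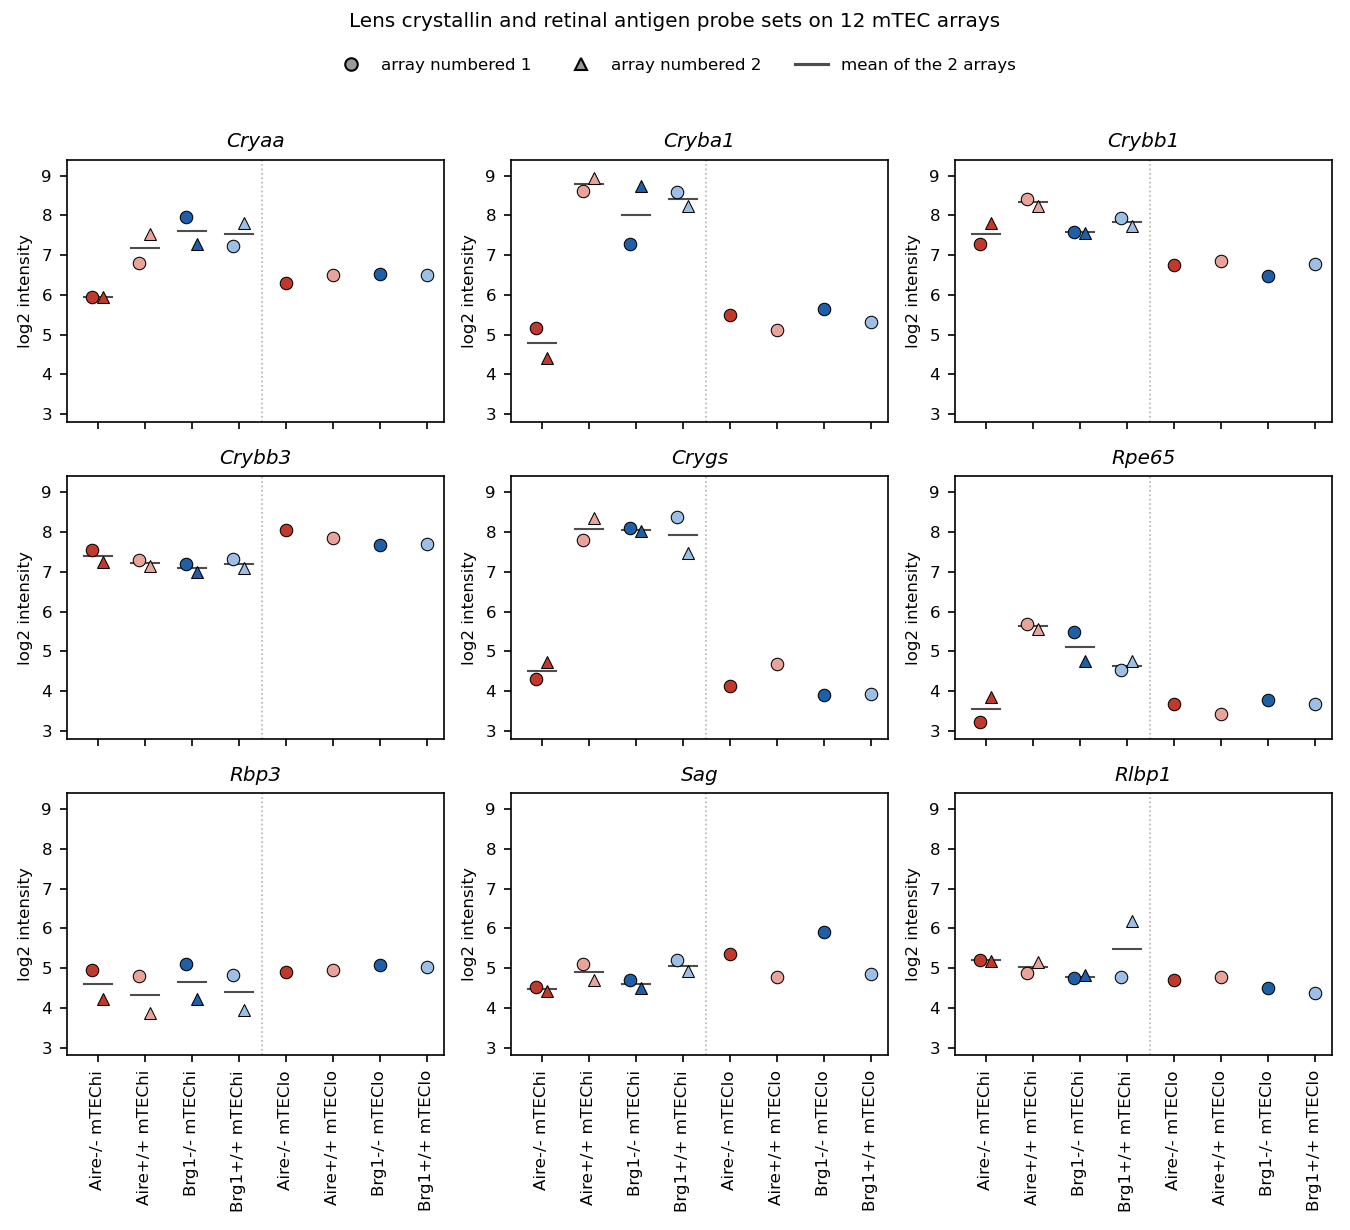
Log2 intensity (vertical axis, the same range in each panel) of the 9 genes on each of the 12 arrays by genotype and cell fraction. Circles are arrays numbered 1, triangles those numbered 2, and bars the means of 2 arrays. Cryba1, Crygs and Rpe65 read higher in Aire+/+, Brg1-/- and Brg1+/+ mTEChi than in Aire-/- mTEChi and the 4 mTEClo arrays. Rpe65 was dim, with readings from 3.22 to 5.70.

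The second comparison asked whether the same genes in mTEChi depended on Brg1. None of the 9 passed, and 0 of all 22154 genes passed in limma, higher or lower (0%), with 1.36% at an unadjusted p under 0.05. Cryba1 read 7.29 and 8.74 in Brg1-/- mTEChi, against 8.58 and 8.24 in Brg1+/+ mTEChi. Its groups overlapped, with a difference of -0.40 (95% interval -1.54 to 0.75). Crygs read 8.10 and 8.02 in Brg1-/- mTEChi, against 8.39 and 7.48 in Brg1+/+ mTEChi, a difference of 0.12 (-0.74 to 0.99). Rpe65 read 5.48 and 4.76 in Brg1-/- mTEChi, against 4.53 and 4.75 in Brg1+/+ mTEChi, a difference of 0.48 (-0.31 to 1.27). For Cryba1 and Crygs the intervals leave out a fall as large as that in the arrays labelled Aire-/-. For Rpe65 both Brg1+/+ arrays lay below both Aire+/+ arrays (5.70 and 5.56), a difference between the wild types of the 2 lines that was not tested.

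None of the remaining lens genes differed by more than 1 unit between Brg1 genotypes. Cryaa read 7.95 and 7.29 in Brg1-/- mTEChi, against 7.24 and 7.82 in Brg1+/+ mTEChi. Crybb1 read 7.58 and 7.57 in Brg1-/- mTEChi, against 7.93 and 7.73 in Brg1+/+ mTEChi, and Crybb3 read 7.19 and 6.99, against 7.32 and 7.09. The Crybb1 groups did not overlap, with a difference of -0.26 (-0.87 to 0.36). Of the retinal genes, Rbp3 read 5.09 and 4.22 in Brg1-/- mTEChi, against 4.82 and 3.95 in Brg1+/+ mTEChi. Sag read 4.71 and 4.51 in Brg1-/- mTEChi, against 5.19 and 4.92 in Brg1+/+ mTEChi, and differed by -0.45 (-1.05 to 0.16). Rlbp1 read 4.74 and 4.82 in Brg1-/- mTEChi, against 4.77 and 6.18 in Brg1+/+ mTEChi, where 1 array stood above all 11 others for this gene. The arrays did not overlap in 2 of the 9 genes that were lower (9.62% of all genes) and in 1 that was higher (9.77%). Thymocyte markers summed to 726 to 2438 in Brg1-/- mTEChi, against 781 to 809 in Brg1+/+ mTEChi. Fibroblast and endothelial markers summed to 1235 to 1326, against 1014 to 1137, and cortical epithelial markers to 1007 to 1147, against 1028 to 1058. Markers of dendritic cells, macrophages and B cells summed to 1144 to 1685, against 1115 to 1685. The part of such cells in these readings was not tested.

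The knockouts were then set against each other by testing the Brg1 difference minus the Aire difference. This was 3.68 for Crygs (SE 0.522, limma adjusted p = 0.0717), 3.59 for Cryba1 (SE 0.693, limma adjusted p = 0.21) and 2.57 for Rpe65 (SE 0.477, limma adjusted p = 0.187). None of the 9 passed over all genes, where 0.135% were called higher and 0% lower. With the genes limited to those at or above the median mean level, Crygs passed (adjusted p = 0.0482). With all genes tested, this fit did not show at its threshold that the knockouts differed for these genes, although the unadjusted 95% intervals of the differences lay above 0, from 2.47 to 4.90 for Crygs, 1.97 to 5.21 for Cryba1 and 1.46 to 3.68 for Rpe65.

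The third comparison asked how the eye genes differed between mTEChi and mTEClo in wild-type mice, with the differences of the Aire+/+ and Brg1+/+ pairs averaged. Crygs, Cryba1, Rpe65 and Crybb1 rose in mTEChi, and none of the 9 fell. Crygs read 7.79, 8.36, 8.39 and 7.48 in mTEChi of Aire+/+ and Brg1+/+ mice, against 4.69 and 3.92 in their mTEClo. The difference was 3.70 (SE 0.319, limma adjusted p = 0.00275), 13-fold as measured and 7.57-fold (2.92) with 16 added to the intensities. Cryba1 read 8.62, 8.94, 8.58 and 8.24 in wild-type mTEChi, against 5.12 and 5.32 in mTEClo, a difference of 3.38 (SE 0.425, limma adjusted p = 0.0104). Rpe65 read 5.70, 5.56, 4.53 and 4.75 in wild-type mTEChi, against 3.43 and 3.67 in mTEClo, a difference of 1.59 (SE 0.292, limma adjusted p = 0.0377). Crybb1 read 8.41, 8.25, 7.93 and 7.73 in wild-type mTEChi, against 6.85 and 6.77 in mTEClo, a difference of 1.27 (SE 0.229, limma adjusted p = 0.0342). In each of these 4 genes the fractions did not overlap. This comparison and that of Aire loss share the Aire+/+ mTEChi arrays.

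The other 5 genes did not pass. Cryaa lay without overlap between the fractions, at 6.80, 7.54, 7.24 and 7.82 in wild-type mTEChi, against 6.51 and 6.49 in mTEClo. Its difference was 0.85 (95% interval 0.11 to 1.59, limma adjusted p = 0.312). The second Cryaa probe set did overlap, at 7.75, 6.49, 7.63 and 5.72 in wild-type mTEChi, against 6.01 and 6.29 in mTEClo. Its readings correlated with those of the probe set used at r = 0.571. Crybb3 read lower in mTEChi, at 7.30, 7.16, 7.32 and 7.09 in wild-type mTEChi, against 7.84 and 7.70 in mTEClo. The Crybb3 difference was -0.55 (-1.05 to -0.06, limma adjusted p = 0.325). Between arrays numbered 1 the Crybb3 difference was -0.54 in Aire+/+ and -0.38 in Brg1+/+ cells. Rbp3 had a difference of -0.63 (-1.63 to 0.37), but its readings followed the array number: the 4 mTEChi arrays numbered 2 read 4.22, 3.86, 4.22 and 3.95, against 4.96, 4.80, 5.09 and 4.82 on those numbered 1. Between arrays numbered 1 the Rbp3 difference was -0.15 in Aire+/+ and -0.21 in Brg1+/+ cells. Sag differed by 0.16 (-0.36 to 0.69) and Rlbp1 by 0.67 (-0.20 to 1.54).

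Of the 9 genes, 4 rose in mTEChi, against 1.93% of all genes called higher and 0.632% called lower. The median difference of the 9 was 0.85, against -0.10 over all genes. Here too the choice of the 9 with earlier results known means that these shares are no test of the set. Between arrays numbered 1 the Crygs difference was 3.10 in Aire+/+ and 4.47 in Brg1+/+ cells, and that of Cryba1 was 3.50 and 3.26. For Rpe65 it was 2.27 in Aire+/+ and 0.86 in Brg1+/+ cells, and for Crybb1 1.56 and 1.16. The fractions did not overlap in 5 of the 9 genes that were higher (11.4% of all genes) and in 2 that were lower (17.7%). Cryaa was among the 5 by the probe set used, but not by its second probe set. Where a wild-type mTEClo array is left out below, the difference comes from the other line alone and is not the average of the 2 lines. Crygs passed without any single array. Cryba1 did not pass without the mTEClo array of Aire+/+ (3.09, adjusted p = 0.114) or of Brg1+/+ (3.66, adjusted p = 0.0558). Crybb1 and Rpe65 did not pass without any 1 of the 6 wild-type arrays (adjusted p from 0.0632 to 0.38 and from 0.0714 to 0.637), Rpe65 falling to 0.97 without Aire+/+ mTEClo. Crybb1 also did not pass without either Brg1-/- mTEChi array (0.077) or with an intensity trend (0.0575), nor Rpe65 with 16 added to the intensities (0.90, adjusted p = 0.0595).

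Of 11 measured medullary markers 3 passed, Cd80, Cd86 and Cd40, all higher in mTEChi, where 1.93% of all genes were called higher. The differences of the 11 ran from -0.90 to 3.05, with 9 above 0 and 2 below. Aire, Fezf2 and the MHC class II genes H2-Aa and H2-Ab1 were among those that did not pass. Summed intensities of 11 thymocyte markers were 560 to 1342 in wild-type mTEChi, against 409 to 463 in mTEClo, with 0 of 11 past the test. Those of 11 fibroblast and endothelial markers were 1014 to 1137 in wild-type mTEChi, against 1514 to 1933 in mTEClo, also with 0 of 11. Of 7 cortical epithelial markers the chemokine gene Ccl25 passed, higher in mTEChi by 1.61 (SE 0.282, limma adjusted p = 0.0311), while the summed intensity of the 7 was 972 to 1058 in wild-type mTEChi, against 1251 to 2000 in mTEClo. For 10 markers of dendritic cells, macrophages and B cells it was 1115 to 1736 in wild-type mTEChi, against 889 to 949 in mTEClo. The part of these cells in the eye gene differences was not tested.

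**Figure D2:**
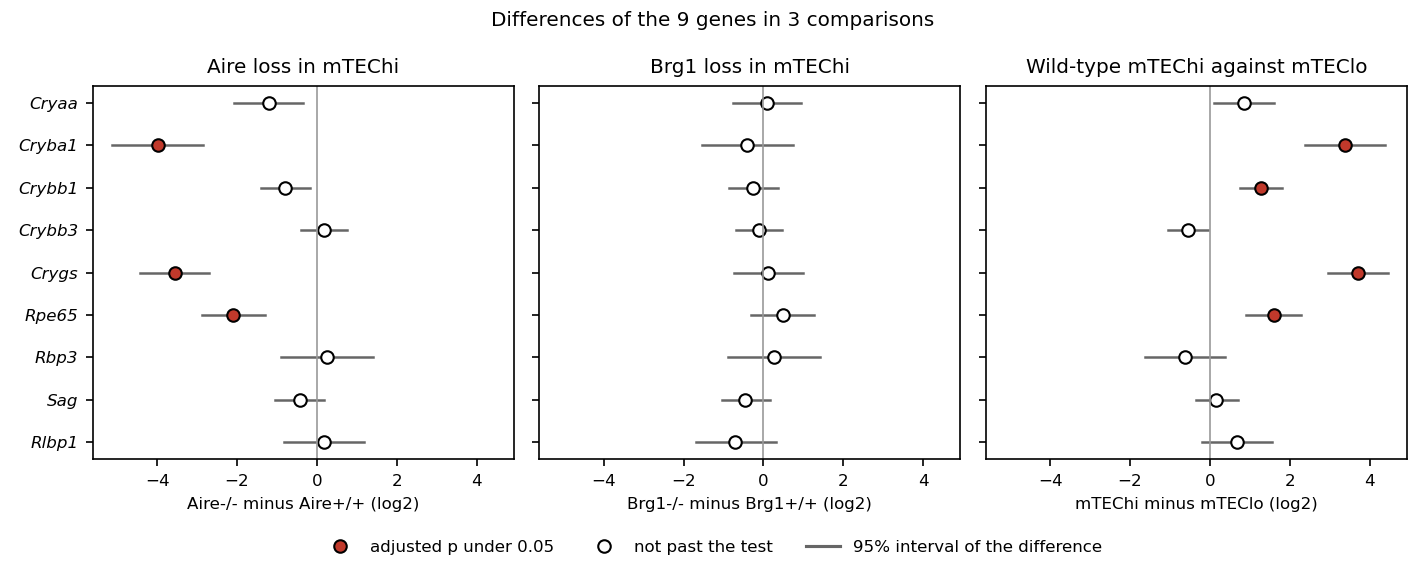
Log2 differences (horizontal axes) of the 9 genes for Aire-/- minus Aire+/+ mTEChi, Brg1-/- minus Brg1+/+ mTEChi, and wild-type mTEChi minus mTEClo. Points are limma estimates, filled where the adjusted p over all genes was under 0.05, and lines are 95% intervals. Cryba1, Crygs and Rpe65 are filled in the first and last panels, Crybb1 in the last, and none in the middle panel.

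In mTEClo neither knockout changed a gene of the 9 past the test. Each mTEClo group had 1 array, which was assumed to vary like the mTEChi arrays, and limma called 0 genes in either comparison, with 1.35% and 1.72% of genes at an unadjusted p under 0.05 for Aire and Brg1. Cryba1 read 5.50 in Aire-/- mTEClo, against 5.12 in Aire+/+ mTEClo, and 5.65 in Brg1-/- mTEClo, against 5.32 in Brg1+/+ mTEClo. Crygs read 4.14 in Aire-/- mTEClo, against 4.69 in Aire+/+ mTEClo, and 3.91 in Brg1-/- mTEClo, against 3.92 in Brg1+/+ mTEClo. Rpe65 read 3.67 in Aire-/- mTEClo, against 3.43 in Aire+/+ mTEClo, and 3.77 in Brg1-/- mTEClo, against 3.67 in Brg1+/+ mTEClo. Cryba1, Crygs and Rpe65 thus read near or below the array medians in wild-type mTEClo, where a fall may not show. The Sag array labelled Brg1-/- mTEClo was the highest of the 12 for that gene, at 5.90, against 4.85 in Brg1+/+ mTEClo, a difference of 1.05 (SE 0.367) that did not pass over all genes (limma adjusted p = 1). Sag also read higher in Aire-/- mTEClo (5.35) than in Aire+/+ mTEClo (4.78), a difference of 0.57 (SE 0.367) that did not pass.

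Whether the Aire effect itself depended on the fraction was tested as the mTEChi difference minus the mTEClo difference. It was -4.37 for Cryba1 (SE 0.849, limma adjusted p = 0.498), -3.01 for Crygs (SE 0.639, limma adjusted p = 0.524) and -2.33 for Rpe65 (SE 0.584, limma adjusted p = 0.82). No gene of the array passed this test (0%), with 2.47% at an unadjusted p under 0.05. With the lone mTEClo arrays, and with low readings of these genes in wild-type mTEClo, the data did not show at the threshold that the effect differed between fractions.

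Set side by side over the 8 groups, Cryba1, Crygs and Rpe65 had the same 3 groups at the top, Aire+/+, Brg1-/- and Brg1+/+ mTEChi. Cryba1 averaged 8.78 in Aire+/+ mTEChi, 8.41 in Brg1+/+ and 8.01 in Brg1-/- mTEChi, and the ranges of neighbours in this order overlapped except between Aire+/+ (8.62 to 8.94) and Brg1+/+ (8.24 to 8.58). Its other 5 groups lay between 4.80 and 5.65, with Aire-/- mTEChi lowest. Crygs averaged 8.08, 8.06 and 7.94 in Aire+/+, Brg1-/- and Brg1+/+ mTEChi, with overlapping ranges, and lay between 3.91 and 4.69 in the other 5 groups. Rpe65 averaged 5.63 in Aire+/+, 5.12 in Brg1-/- and 4.64 in Brg1+/+ mTEChi, and lay between 3.43 and 3.77 in the others. The ranges of these top 3 Rpe65 groups did not overlap, though each group held only 2 arrays. Between arrays numbered 1, mTEChi minus mTEClo in Aire-/- cells was -0.33 for Cryba1, 0.17 for Crygs and -0.45 for Rpe65. The same difference in Brg1-/- cells was 1.64, 4.19 and 1.71. Crybb1 kept a different order, with Aire-/- mTEChi (mean 7.54) above each of the 4 mTEClo arrays (6.47 to 6.85). Crybb3 averaged 7.09 to 7.40 over the 4 mTEChi groups and read 7.68 to 8.06 on the 4 mTEClo arrays. Cryaa averaged 7.62 in Brg1-/-, 7.53 in Brg1+/+ and 7.17 in Aire+/+ mTEChi, with overlapping ranges, and 5.96 in Aire-/- mTEChi, below the 4 mTEClo arrays (6.30 to 6.53). In mTEClo Rbp3 read 4.89 to 5.08, Sag 4.78 to 5.90 and Rlbp1 4.37 to 4.78.

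The rest of the crystallin family was read from a list of 18 other genes, all measured. This list too was chosen with earlier results of these data known. In Aire-/- mTEChi 1 of the 18 fell and 0 rose, where 0.772% of all genes were called lower. The median was -0.79, against 0.06 over all genes, and 14 of the 18 lay below 0, as did 41% of all genes. The gene that fell was Crygc, a gamma-crystallin of lens fibres, which read 4.53 and 3.34 in Aire-/- mTEChi, against 8.09 and 7.35 in Aire+/+ mTEChi (difference -3.79, SE 0.58, limma adjusted p = 0.0386). Crygb, Cryga and Cryba2 differed by -3.06, -1.58 and -1.55 without passing (limma adjusted p = 0.231, 0.26 and 0.199). In wild-type mTEChi against mTEClo 3 of the 18 rose, Crygb (3.62, SE 0.656), Crygc (3.01, SE 0.502) and Cryga (1.83, SE 0.35), and 0 fell, where 1.93% of all genes were called higher and 0.632% lower. Crygf, named after its values were seen, did not pass in either comparison (-3.19, SE 1.49, and 4.24, SE 1.29). It read 2.50 and 2.29 in Aire-/- mTEChi, against 3.30 and 7.87 in Aire+/+ mTEChi, so its wild-type arrays disagreed by over 4 units. Cryga to Crygf are closely related paralogs, and how far their probe sets read each other's transcripts is uncertain, since probe sequences were not analysed here.

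Some crystallin relatives that are also known from tissues outside the lens, named after their values were seen, differed by less than 1 unit. The choice may not cover every such gene of the list. Cryab, the alpha-crystallin of muscle and many stressed tissues, differed by -0.61 in Aire-/- mTEChi, and the enzyme-related Cryz, Cryzl1, Crym and Cryl1 by -0.39 to 0.60. None of these passed in either comparison. Small differences were not particular to them. For Aire loss the crystallins Crybb2 (-0.16), Crybb3 (0.17), Crybb1 (-0.79) and Cryge (-0.95) also differed by less than 1 unit. So did Crybg1 (-0.63), Crybg2 (-0.11) and Crybg3 (0.28), while Cryba2 (-1.55) and Crygn (-1.11) differed by more without passing.

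**Figure D3:**
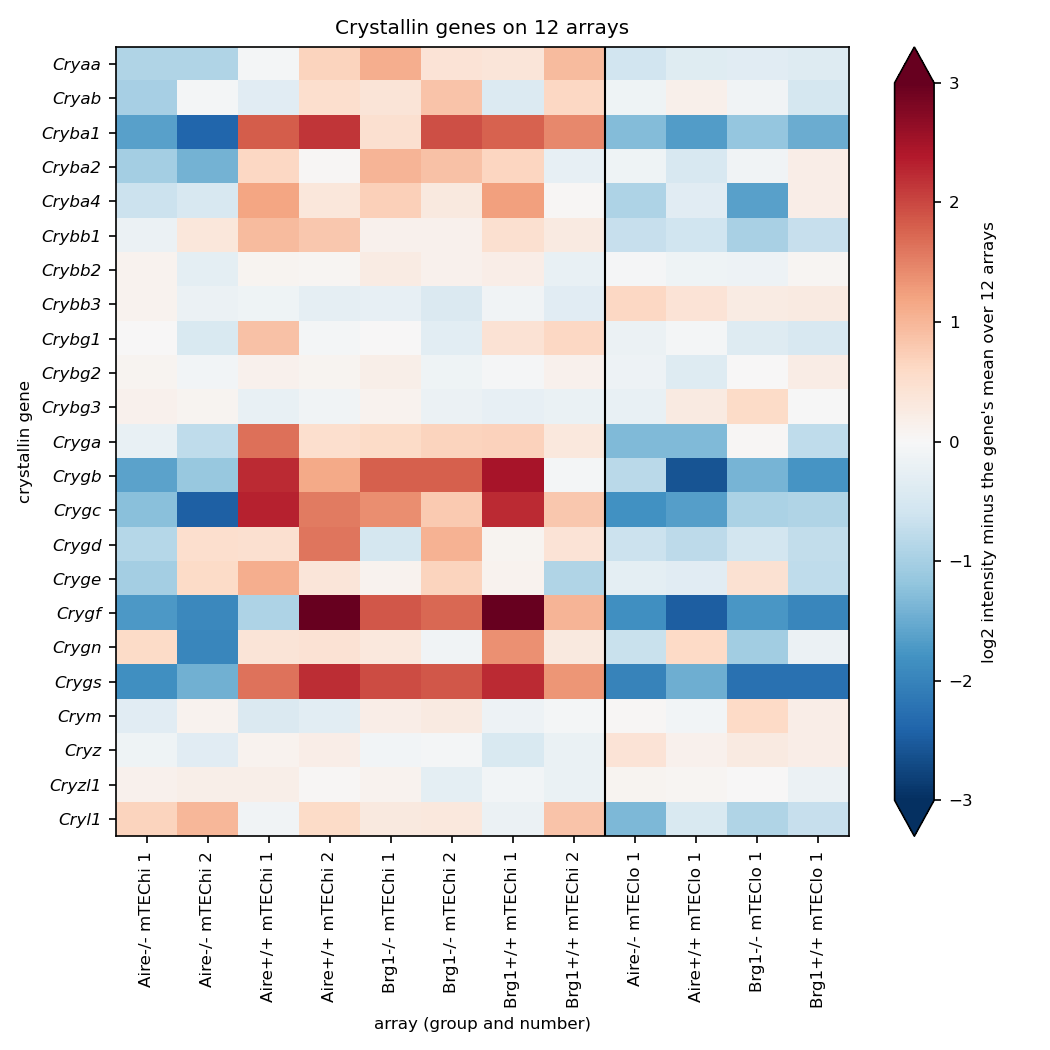
Log2 intensity of 23 crystallin genes on the 12 arrays, shown as the difference from each gene's mean over the arrays (colour, limited to 3 units either way, which Crygf exceeds). Rows are genes and columns are arrays, mTEChi left of the line and mTEClo right of it. Cryba1, Crygb, Crygc and Crygs are blue in Aire-/- mTEChi and in mTEClo.

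Of 15 measured genes of lens fibres and lens development 0 passed in Aire-/- mTEChi, where 0.772% of all genes were called lower and 0.0226% higher. The median was -0.05. Grifin, a lens galectin-related protein, read 6.79 and 6.37 in Aire-/- mTEChi, against 9.78 and 8.94 in Aire+/+ mTEChi. Its difference of -2.78 (SE 0.459, limma adjusted p = 0.0501) lay just outside the threshold. In wild-type mTEChi against mTEClo Grifin was the 1 of 15 that rose, where 1.93% of all genes did (2.34, SE 0.398, limma adjusted p = 0.0273). The other 14 genes of the list had an adjusted p of 1 for Aire loss, with Birc7 at -0.60 and Lctl at -0.44.

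Of 18 measured genes of the visual cycle and pigment epithelium 0 passed in Aire-/- mTEChi, where 0.772% of all genes were called lower and 0.0226% higher. The median was -0.05, with a range of -0.75 to 1.51. At the top of that range was Lrat, the acyltransferase that makes the retinyl ester substrate of Rpe65, which read 8.26 and 7.93 in Aire-/- mTEChi, against 6.67 and 6.51 in Aire+/+ mTEChi. Its difference of 1.51 (SE 0.254, limma adjusted p = 0.054) did not pass, and its sign was opposite to that of Rpe65. Rgr, a retinal opsin of the pigment epithelium, read 6.99 and 7.37 in Aire-/- mTEChi, against 5.99 and 5.89 in Aire+/+ mTEChi (1.24, SE 0.245, limma adjusted p = 0.104). The retinol carrier gene Rbp4 differed by -0.72 (limma adjusted p = 0.772). In wild-type mTEChi against mTEClo 2 of the 18 rose, again against 1.93% of all genes, the thyroxine and retinol transport gene Ttr (1.76, SE 0.236, limma adjusted p = 0.012) and Lrat (1.17, SE 0.22, limma adjusted p = 0.0398).

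Of 28 phototransduction genes 0 passed in Aire-/- mTEChi, where 0.772% of all genes were called lower and 0.0226% higher. The median was 0.04. The largest differences were in Guca1a, a guanylate cyclase activator (-1.79, SE 0.494, limma adjusted p = 0.339), Gngt1, the gamma subunit of rod transducin (-1.65, SE 0.447, limma adjusted p = 0.317), and the cone opsin Opn1mw (-0.90, SE 0.352, limma adjusted p = 0.789). Gngt1 was the 1 of 28 that rose in wild-type mTEChi against mTEClo, where 1.93% of all genes did (2.09, SE 0.387, limma adjusted p = 0.0384). Of 14 photoreceptor structure genes and 11 eye transcription factors 0 passed in either comparison. Their median differences in Aire-/- mTEChi were 0.03 and -0.03, with ranges of -0.46 to 0.40 and -0.29 to 0.39. Every gene of both lists had a limma adjusted p of 1 for Aire loss, among them the photoreceptor disc genes Prom1 (-0.46) and Prph2 (0.23) and the transcription factors Otx2 (-0.29), Six6 (0.25) and Neurod1 (0.39). Otx2 (4.70 and 5.03) and Neurod1 (3.78 and 3.63) read below the array medians even in Aire+/+ mTEChi, where a fall may not show. Prom1 and Six6 read near the medians there, and Prph2 above them (5.75 and 5.53). At the shares of all genes called for Aire loss, 0 calls do not set these lists apart. In Brg1-/- mTEChi 0 genes of the 6 eye lists passed, as did 0% of all genes.

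**Figure D4:**
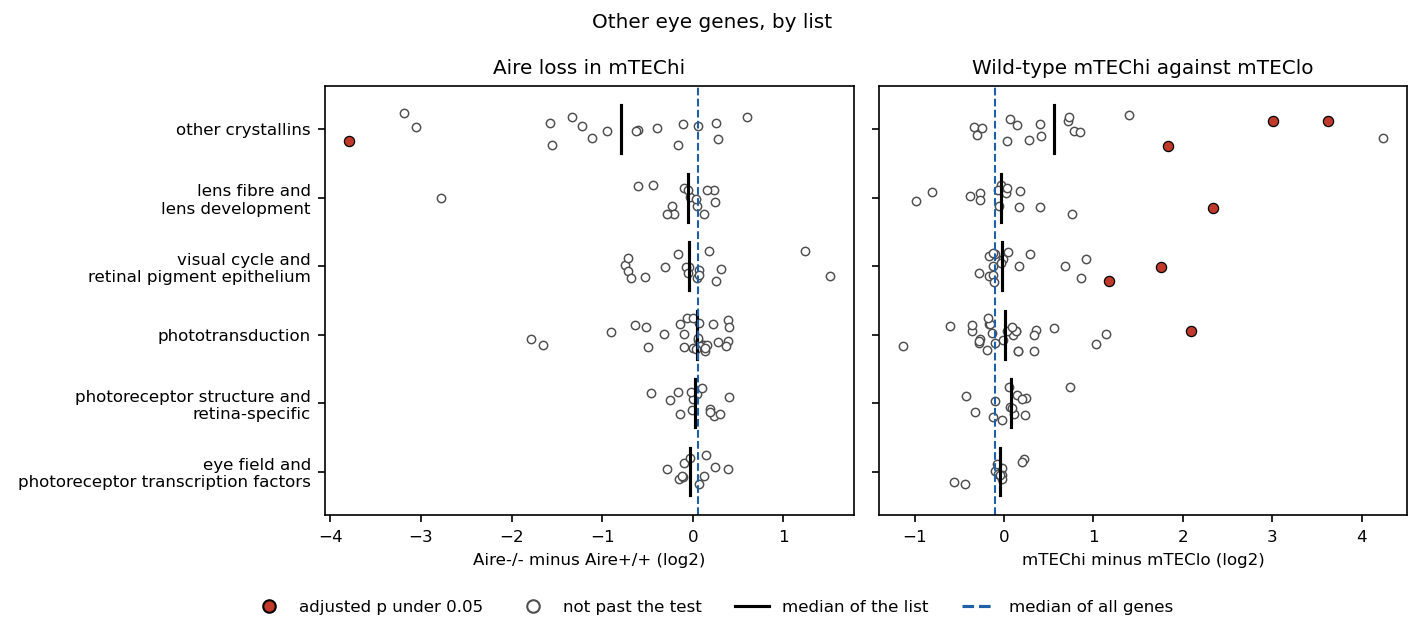
Log2 differences (horizontal axes) of the measured genes in 6 lists of other eye genes for Aire-/- minus Aire+/+ mTEChi and for wild-type mTEChi minus mTEClo. Each point is a gene, filled where the limma adjusted p was under 0.05, black lines are list medians and the dashed line is the median of all genes. Crygc is the only filled point on the left, and 7 genes are filled on the right.

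The genes next to each of the 9 on the chromosome were read from the RefSeq gene order, taking the nearest measured gene on each side. None of these 18 neighbours passed for Aire loss (from -1.33 to 0.55) or for wild-type mTEChi against mTEClo (from -1.28 to 0.78). Of all genes, 0.772% were called lower and 0.0226% higher for Aire loss, and 1.93% higher and 0.632% lower between fractions. At such shares 0 calls among 18 genes do not set the neighbours apart from other genes. The neighbours of Cryba1, Nufip2 and Gm10277, differed by -0.04 and 0.00 in Aire-/- mTEChi, and those of Crygs, 9230117E06Rik and Tbccd1, by -0.15 and 0.09. The neighbours of Rpe65, Depdc1a and Wls, differed by -0.01 and -0.58. Crybb1 lies beside the crystallin gene Cryba4 (-1.33, limma adjusted p = 0.578) and Crybb3 beside Crybb2 (-0.16), neither of which passed.

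The genes whose readings were most like each member over the 12 arrays were found by Pearson's r, as a description. The arrays fall into groups and share array numbers, so these values carry genotype, fraction and number together. For Crygs they were Gkn2, a stomach gastrokine (0.986), AA623943 (0.986) and Pate12 (0.985). For Cryba1 they were Scrg1 (0.978), the seminal vesicle gene Svs5 (0.978) and the pancreatic elastase Cela3b (0.977). For Rpe65 they were the secretoglobin Scgb2b2 (0.961), Ifitm6 (0.946) and Fam184a (0.935), and for Crybb1 Apoa2 (0.961), Ccl3 (0.956) and Klk1b16 (0.951). For Rbp3, whose readings followed the array number, they were Hyal4 (0.993), Fam149a (0.985) and Arhgap5 (0.981). Those of Sag had the lowest values, Ncs1 (0.91), Cav3 (0.875) and Ano1 (0.848). The lists changed with Spearman's rho, which shared 0 of 3 genes with Pearson's r for Crygs and 1 of 3 for Cryba1.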

How the data were processed

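The deposited table gives each of 33732 probe sets an intensity (linear scale) on 12 arrays. RMA, Expression Console and Transcriptome Analysis Console appear, per the submitters' processing notes, with no version or order. How the arrays were normalized is unstated. RMA is known to compress differences of dim genes.

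Values were converted to log2 without a pseudocount. The platform annotation gave 1 symbol to 23491 probe sets, several to 1811 and none to 8430, and the brightest probe set by mean was kept for each of 22154 genes. Groups and numbers came from the titles. R 4.3.3 with limma 3.58.1 (lmFit, eBayes) fitted 8 group means over 12 arrays (4 residual and 3.46 prior degrees of freedom). A call was a two-sided Benjamini-Hochberg adjusted p under 0.05 over 22154 genes. SE and 95% intervals come from that fit, the intervals unadjusted. The code was tested on simulated arrays. Alternatives covered blocking, scaling, filtering, probe sets, an offset of 16, mTEChi arrays alone, a trend, and single arrays left out.

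The members and lists were chosen with earlier results of these data known. From each list the text names genes past the test for Aire loss or between wild-type fractions, or among the 3 with the smallest adjusted p for Aire loss, ties ordered by unadjusted p. Likeness left out predicted genes, small RNAs, and olfactory and vomeronasal receptors. Protein identity was not analysed here.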

Additional observations from a re-analysis of the deposited data

How the results depend on the processing

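The labels share replicate numbers 1 and 2 between groups but do not say that a number marks an animal, litter or batch. Deviations from the group mean correlated across genes between same-numbered arrays, with r = 0.657 in the Aire line and 0.552 in the Brg1 line. Over all pairs of the 4 mTEChi groups, across lines too, r ran from 0.552 to 0.657. The replicate block used here had a separate term for each line. With the replicate block (2 residual degrees of freedom) the genes called were 531 for Aire loss in mTEChi (176 without it), 1534 for wild-type mTEChi against mTEClo (567), 201 for the Brg1 minus Aire effect (30), 3 for Aire loss in mTEClo (0) and 63 for the Aire effect between fractions (0). The block kept the calls of Cryba1, Crygs and Rpe65 for Aire loss and of Crygs, Cryba1, Rpe65 and Crybb1 between fractions, and 2 members passed for the Brg1 minus Aire effect, Crygs (adjusted p = 0.00567) and Rpe65 (0.0498). With the block Cryga, Crygb, Cryba2, Grifin and Guca1a were also lower, and Lrat, Rgr and the fibroblast marker Lum (adjusted p = 0.0366) higher, in Aire-/- mTEChi.

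For the Brg1 minus Aire effect, arrays centred on their medians gave 48 genes, and the filter on dim genes gave 46 with 1 member, Crygs. Aire loss in mTEClo gave 1 gene with quantile normalization and 2 with the filter, which removed Rpe65, Rbp3, Sag and Rlbp1 from the test. Signs that changed were those of differences near 0 that passed nowhere: Rbp3 in the Brg1 minus Aire effect was -0.01 with centring and -0.02 with quantile normalization. For Brg1 loss in mTEClo Crybb3 was 0.01 and Crygs 0.02 with centring, Crygs 0.04 with quantile normalization, and Cryaa -0.20 with probe sets averaged. Crybb3 in the Aire effect between fractions was 0.01 with centring.

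Leaving out each array in turn gave 0 to 3 members and 53 to 184 genes for Aire loss in mTEChi, 1 to 4 members and 80 to 567 genes between fractions, 0 members and 4 to 30 genes for the Brg1 minus Aire effect, and 0 members and 0 to 1 gene for Brg1 loss in mTEChi. Members whose sign changed ranged, for Aire loss, from -0.21 to 0.73 (Rbp3). For Brg1 loss in mTEChi they ranged from -0.24 to 0.42 (Cryaa), -1.12 to 0.33 (Cryba1), -0.33 to 0.58 (Crygs), -0.17 to 0.71 (Rbp3) and -1.40 to 0.01 (Rlbp1). For the Brg1 minus Aire effect they ranged from -0.46 to 0.48 (Rbp3) and -0.23 to 0.19 (Sag), and for the Aire effect between fractions from -0.19 to 0.09 (Crybb3) and -0.15 to 0.79 (Rbp3). Across all settings 1075 member differences kept their sign and side of the threshold, 36 lost a call, 3 gained one and 28 changed sign. Many of the 1075 could not change, since leaving out lone mTEClo arrays does not alter the comparisons within mTEChi. Members without a call in the main fit had none to lose. These counts therefore do not measure how robust the calls were. Without its lone array an mTEClo group gives no value in the comparisons that need it, and the fit of mTEChi arrays alone gives no value for mTEClo. Fewer arrays leave fewer degrees of freedom; other causes were not tested.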
